A study of Homo sapiens with 2 samples.

Results

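The FLRT cell-surface proteins, 2 of the latrophilin receptors that bind them, the FGF receptors and the FGF co-receptor gene KLB were followed in liver cancer cells that carried miR-130b or an empty vector. The 10 genes are FLRT1, FLRT2, FLRT3, ADGRL2, ADGRL3, FGFR1, FGFR2, FGFR3, FGFR4 and KLB, out of 19775 genes with a probe set of their own on the array. All probe sets whose annotation gives exactly 1 of these symbols were taken, 38 in all. The set was put together around FLRT3, which was chosen by its measured difference, a large decrease in these same arrays, so the FLRT3 difference is a description and supports nothing further.

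The series holds 2 arrays of PLC8024, a human hepatocellular carcinoma cell line. The cells of both arrays had been sorted by flow cytometry as CD133-negative. The treated cells had received a lentivirus with miR-130b, although the source label of that array speaks of transfection, and the control cells had received the lentivirus with an empty vector. Each condition has 1 array of total RNA, so there is no replicate error and no difference was tested. Whatever else separated the 2 cultures cannot be told apart from the vector.

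FLRT proteins are single-pass membrane proteins with an outer leucine-rich repeat domain and a fibronectin type III domain. They act as adhesion and guidance molecules: they bind latrophilins, which are adhesion G protein-coupled receptors encoded by ADGRL genes, and UNC5 receptors on neighbouring cells. Inside their own cell's membrane they also associate with FGF receptors, the tyrosine kinases that bind fibroblast growth factors, and in Xenopus embryos FLRT3 was described as a promoter of FGF signalling. In the liver, FGFR4 with the co-receptor beta-Klotho, the product of KLB, receives the gut hormone FGF19, which restrains bile acid synthesis.

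The vector's microRNA recognises transcripts mainly through its seed, bases 2 to 8. The labels do not say which strand of the hairpin was meant, and the 3p strand is shown because it is the one that carries the family seed. The RefSeq table (GRCh38.p14) lists 6 mature microRNAs with this seed, miR-130b-3p among them, and may not hold every family member. miR-130b-3p is given with some of the others to show what such microRNAs share with the vector. The seed is in capitals. miR-130b-3p lies at chr22:21653354-21653375 (+), miR-301b-3p at chr22:21653025-21653047 (+), miR-301a-3p at chr17:59151149-59151171 (-) and miR-454-3p at chr17:59137787-59137809 (-).
miR-130b-3p: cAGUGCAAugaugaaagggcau
miR-301b-3p: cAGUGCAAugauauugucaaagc
miR-301a-3p: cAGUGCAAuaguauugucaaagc
miR-454-3p: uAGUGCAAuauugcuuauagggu
Whether any of the 10 transcripts holds a match to this seed was not analysed here.

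All values are the deposited log2 expression values, and every difference is miR-130b minus empty vector on that scale. A probe set counted as measured when its brighter array reached 4.88, the median value of the 2 arrays without their control probe sets. By this floor 19 of the 38 probe sets and 8 of the 10 genes were measured, and each gene was represented by its brightest measured probe set. Because a probe set that is bright in only 1 array passes the floor through that array, counts over measured probe sets favour those that differ. The only spread at hand is that between probe sets: those of the same gene differed with a pooled SD of 0.20 in their log2 difference, over 6047 genes. It holds differences between the probe sets themselves and does not measure the error between arrays or cultures. A 1.5-fold difference (0.58 on the log2 scale) is used as a rule of size.

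Markers of liver cells were present in both arrays. Of 12 hepatocyte and hepatocellular carcinoma markers, 11 were measured, of which 3 were at least 1.5-fold lower in miR-130b cells, 0 higher and 8 within 1.5-fold. Among all measured genes 2.68% were lower and 0.294% higher by that rule. By direction alone, 8 of the 11 were lower and 3 higher, with a median difference of -0.27. SERPINA1, APOB and FGB, the 3 that were higher, differed by 0.08, 0.04 and 0.01 in their brightest probe sets, and APOB by 0.52 in its other one. Among the others, AFP stood at 12.95 in miR-130b cells and 13.53 in empty vector cells. Albumin (ALB) was at 10.96 in miR-130b cells and 11.99 in empty vector cells in its brightest probe set. Its other measured probe sets differed by -2.38 and -1.56. KRT8 differed by -1.05. TTR, a thyroid hormone carrier, was at 5.92 in miR-130b cells and 9.26 in empty vector cells. The sort marker stood against the CD133-negative label at the RNA level: PROM1, which encodes CD133, was above the floor in both arrays, at 6.07 in miR-130b cells and 9.19 in empty vector cells. Of the 2 bile duct keratins, KRT19 was at 4.02 in miR-130b cells and 7.05 in empty vector cells, while KRT7 was at 6.21 in miR-130b cells and 6.02 in empty vector cells. No leukocyte marker of 3 was measured. Of 3 endothelial markers only PECAM1 was measured, with 8.72 in miR-130b cells and 8.51 in empty vector cells in its brightest probe set. None of the 4 measured stromal markers differed by 1.5-fold in its brightest probe set, but the measured COL1A1 probe sets disagreed, with differences of -0.08, 0.38, -0.88 and -1.68. The collagen gene COL1A2, outside the list and named after its values were seen, was at 4.90 in miR-130b cells and 7.98 in empty vector cells. The 3′ to 5′ signal ratio, a usual proxy of RNA integrity, was somewhat higher in miR-130b cells. For ACTB it was 2.41 in miR-130b cells and 1.95 in empty vector cells. For GAPDH it was 1.52 in miR-130b cells and 1.37 in empty vector cells. With 1 array per condition, whether RNA integrity differed was not tested. The part of these differences in the results below was not tested.

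FLRT3 showed the largest difference of the 10 genes, with no signal above the floor in miR-130b cells. Probe set 222853_at had 3.995 in miR-130b cells and 8.66 in empty vector cells, a difference of -4.67 or 25.4-fold lower. Probe set 219250_s_at had 4.34 in miR-130b cells and 7.96 in empty vector cells, a difference of -3.62 or 12.3-fold lower. Both probe sets lay below the floor in miR-130b cells and far above it in empty vector cells. The 2 differences are 1.05 apart, more than the usual spread between probe sets of a gene, but point the same way. Values under the floor are mostly background, so the folds depend on where the background lies: with both arrays raised to the floor the same probe sets were 13.8-fold and 8.43-fold lower.

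By its brighter probe set FLRT3 had the 3rd lowest difference among 13260 measured genes. The genes nearest to it over both arrays, by the distance between the log2 values of the representing probe sets, were PHLDB2, which anchors microtubules at the cell cortex, MYL9, a regulatory light chain of non-muscle and smooth muscle myosin, and SERPINE2, a secreted inhibitor of thrombin and other proteases. PHLDB2 had 3.70 in miR-130b cells and 8.15 in empty vector cells, a distance of 0.59 from FLRT3. MYL9 had 4.23 in miR-130b cells and 8.07 in empty vector cells, a distance of 0.64. SERPINE2 had 4.10 in miR-130b cells and 7.71 in empty vector cells, a distance of 0.96. With 2 arrays, likeness means only a similar level in each.

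FLRT2, the other family member with a measured probe set, was also lower in miR-130b cells in each of its 3 probe sets. Probe set 204358_s_at had 5.10 in miR-130b cells and 5.39 in empty vector cells, a difference of -0.29. Probe set 204359_at had 4.01 in miR-130b cells and 5.04 in empty vector cells, a difference of -1.03. Probe set 240259_at, below the floor in both arrays, had 3.61 in miR-130b cells and 4.58 in empty vector cells, a difference of -0.97. The brightest probe set, which represents the gene, thus stayed within 1.5-fold while the 2 others passed it. The larger differences came from values at or under the floor. With both arrays raised to the floor, 204359_at differed by only -0.16 and 240259_at by 0.

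FLRT1, the third family member, was not measured: its only probe set had 4.70 in miR-130b cells and 4.82 in empty vector cells. This says that no signal above the floor was seen, not that the transcript was absent.

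**Figure D1:**
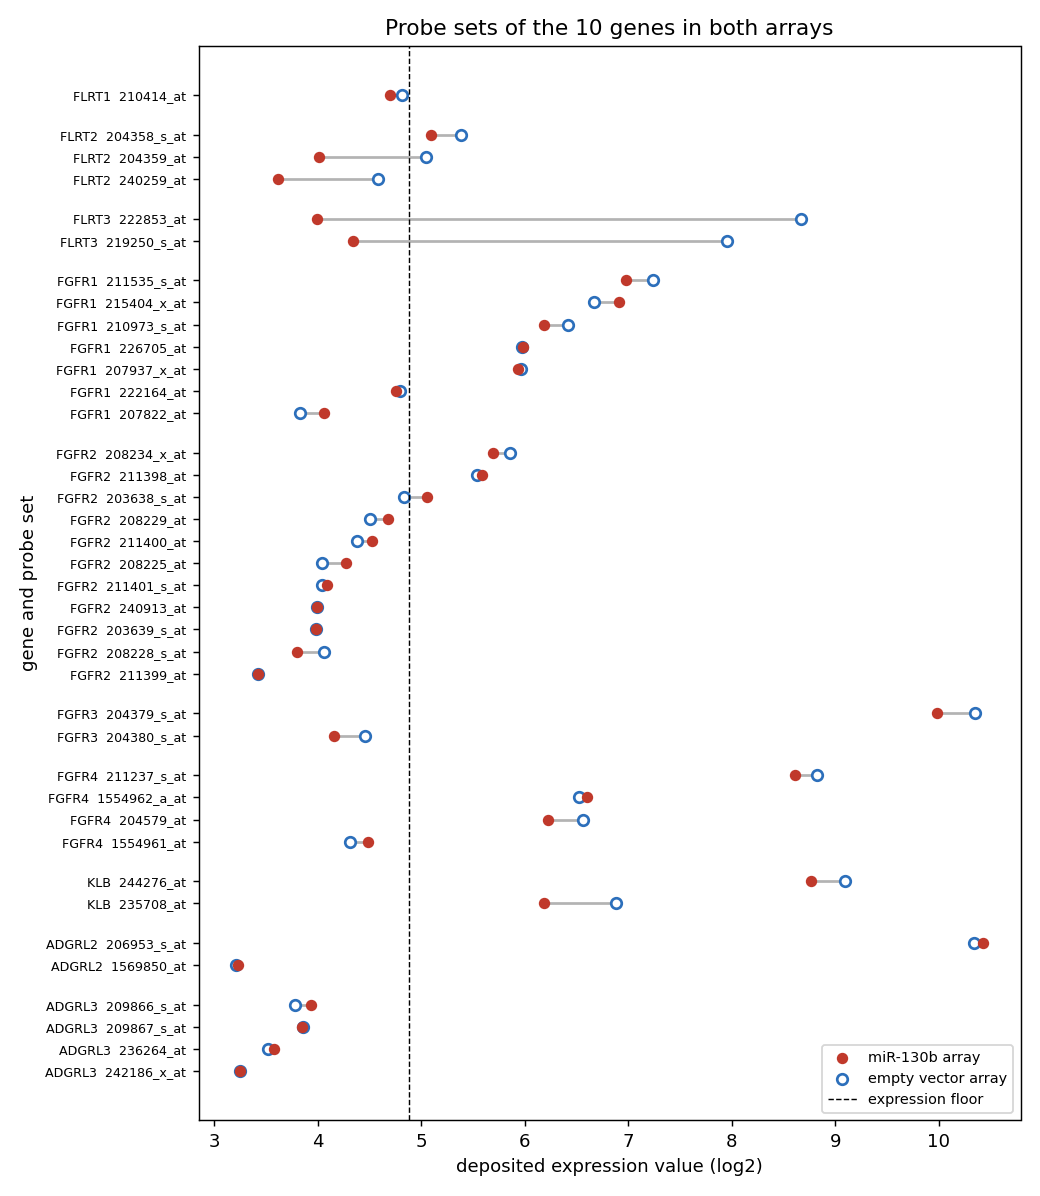
Deposited log2 expression value (horizontal axis) of each of the 38 probe sets of the 10 genes, with the miR-130b array as filled red points and the empty vector array as open blue points joined by a grey line; the dashed line is the floor of 4.88. The long lines belong to the 2 FLRT3 probe sets, whose miR-130b values of 3.995 and 4.34 lie left of the floor, while most other pairs nearly coincide.

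The start region of FLRT3 is printed because this gene differs most, and that of FLRT2 because it was lower too. FLRT2 has several windows, and the one printed was picked because it holds the motif marked in FLRT3. Each window runs from 250 bases before to 50 bases after a RefSeq start site, 5′ to 3′ on the gene's strand, in GRCh38.p14. Capitals mark GGAATG, the core letters of the motif bound by TEAD transcription factors.
FLRT3, chr20:14337563-14337862 (-): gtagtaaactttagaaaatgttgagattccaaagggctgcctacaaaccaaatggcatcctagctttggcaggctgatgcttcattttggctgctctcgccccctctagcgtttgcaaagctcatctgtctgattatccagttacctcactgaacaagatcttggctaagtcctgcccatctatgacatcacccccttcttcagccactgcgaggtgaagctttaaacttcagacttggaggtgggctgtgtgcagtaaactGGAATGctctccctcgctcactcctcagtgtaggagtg
FLRT2, chr14:85533099-85533398 (+): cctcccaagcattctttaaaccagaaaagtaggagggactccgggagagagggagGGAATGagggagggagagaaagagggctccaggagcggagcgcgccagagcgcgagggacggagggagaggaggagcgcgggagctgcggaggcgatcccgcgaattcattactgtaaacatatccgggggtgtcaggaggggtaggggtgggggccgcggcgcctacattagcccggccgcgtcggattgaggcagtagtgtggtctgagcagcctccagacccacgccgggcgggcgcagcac
Both strands were searched for the TATA box (TATAAA), the TEAD letters (GGAATG), a motif of GATA factors (AGATAA), one of AP-1 (TGANTCA), the CCAAT box and one of ETS factors (CCGGAA). In the FLRT3 window only GGAATG was found, starting at base 13 of the transcribed part, and in the FLRT2 window printed here it starts 195 bases before the start site. The other FLRT2 windows and the KLB window held none of the 6 motifs. GGAATG also stands in windows of genes that hardly differed: 1 window each of ADGRL2 and FGFR4 and 2 windows of FGFR2. The FGFR1 windows are not reported here. It occurs in 14.0% of the 35116 windows of this length in the table, and a match is a description of the letters, not a binding site.

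The measured genes nearest to FLRT3 on either side did not share its difference. RefSeq places FLRT3 within the interval of MACROD2, which encodes an enzyme that removes ADP-ribose from proteins. All 4 MACROD2 probe sets lay below the floor in both arrays, so a decrease could not have been seen there. SEL1L2, a coding gene between FLRT3 and NDUFAF5, lay below the floor too. The next coding genes on either side with a measured probe set, NDUFAF5 and KIF16B, differed by -0.21 and 0.38 in their brightest probe sets. The other measured KIF16B probe set went the other way, with -0.24. A neighbour of FLRT2 was lower, although FLRT2 itself stayed within 1.5-fold in its brightest probe set. GALC, which encodes the lysosomal enzyme galactosylceramidase, is the next coding gene after FLRT2 in RefSeq order, with distance not considered. Its measured probe set had 4.77 in miR-130b cells, below the floor, and 6.39 in empty vector cells, a difference of -1.61. The other GALC probe set, below the floor in both arrays, differed by -0.58. On the other side of FLRT2, SEL1L, the nearest coding gene with a probe set of its own, differed by 0.10. Beside KLB, RFC1 differed by 0.06 and RPL9 had 13.45 in both arrays. These neighbours were looked up after the differences of the 3 genes were known.

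The latrophilins had small differences. ADGRL2 (latrophilin-2) had 10.43 in miR-130b cells and 10.34 in empty vector cells in probe set 206953_s_at, a difference of 0.09. Its other probe set lay near the bottom of the scale, at 3.23 in miR-130b cells and 3.21 in empty vector cells. ADGRL2 was the only one of the 8 measured members with a positive difference in its representing probe set. ADGRL3 (latrophilin-3) was not measured: its 4 probe sets ranged between 3.25 and 3.93 in miR-130b cells and between 3.25 and 3.86 in empty vector cells. Their differences ran from -0.01 to 0.15. ADGRL2 signal above the floor was therefore present in both cultures, and FLRT3 signal above it in empty vector cells only.

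A list of 10 further FLRT partners held 4 measured genes, of which 0 were at least 1.5-fold lower and 0 higher, with a median difference of -0.11. Among all measured genes 2.68% were lower and 0.294% higher by that rule, so a count of 0 among 4 says nothing about the partners. UNC5B, a netrin receptor that also binds FLRTs, had 7.15 in miR-130b cells and 7.39 in empty vector cells in its brightest probe set. Its 3 measured probe sets disagreed in size, with differences of -0.24, -1.14 and -0.39, and their mean passes 1.5-fold. ADGRL1 (latrophilin-1) had differences of 0.08 in its brightest probe set, 0.41 and -0.06 in the others. TENM4, a teneurin, stood at the floor in both arrays with a difference of 0.03, and TENM1, TENM2, TENM3, UNC5A, UNC5C and UNC5D were not measured.

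The 4 FGF receptor genes differed little. FGFR3 had the lowest difference: probe set 204379_s_at had 9.98 in miR-130b cells and 10.35 in empty vector cells, a difference of -0.37. Its dim second probe set, at 4.15 in miR-130b cells and 4.46 in empty vector cells, differed by -0.30. Both FGFR3 probe sets were lower by under 1.5-fold. Among all measured probe sets, 5.88% differed downwards by at least as much as 204379_s_at.

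FGFR4, the main FGF receptor of hepatocytes, had 8.61 in miR-130b cells and 8.82 in empty vector cells in probe set 211237_s_at, a difference of -0.21. Probe set 204579_at had 6.22 in miR-130b cells and 6.56 in empty vector cells, a difference of -0.33. Probe set 1554962_a_at went the other way, at 6.60 in miR-130b cells and 6.52 in empty vector cells, and so did the unmeasured 1554961_at, with 0.18. The direction for FGFR4 therefore depends on the probe set.

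The same holds for FGFR1 and FGFR2. The 5 measured FGFR1 probe sets ranged from 5.93 to 6.97 in miR-130b cells and from 5.97 to 7.24 in empty vector cells. Their differences were -0.26, 0.24, -0.23, 0.01 and -0.03 from the brightest probe set to the dimmest, so the gene has no agreed direction. FGFR2 has 11 probe sets, of which 3 were measured, with differences of -0.16, 0.04 and 0.22. All 3 were dim, between 4.83 and 5.86 over both arrays. Of the 8 others, 3 carried exactly the same value in both arrays, as 4.2% of all non-control probe sets did. Many of these probe sets were designed on transcript variants, and no variant-level statement can be made from them here.

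KLB was lower in both of its probe sets. Probe set 244276_at had 8.77 in miR-130b cells and 9.09 in empty vector cells, a difference of -0.32. Probe set 235708_at had 6.19 in miR-130b cells and 6.88 in empty vector cells, a difference of -0.69 or 1.61-fold lower. Both values of 235708_at lay well above the floor, unlike those behind the larger differences of FLRT2. The 2 KLB differences are 0.37 apart, so whether the gene passes 1.5-fold depends on the probe set. Among all measured probe sets, 7.36% differed downwards by at least as much as 244276_at and 2.29% by at least as much as 235708_at.

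Counted by gene, 1 of the 8 measured members was at least 1.5-fold lower, against 2.68% of all measured genes, and that gene is FLRT3, which was chosen for it. None of the 8 was at least 1.5-fold higher, against 0.294% of all measured genes. Leaving FLRT3 aside, 0 of 7 passed 1.5-fold in either direction, with a median difference of -0.26 beside 0.03 for all measured genes. This median is the value of FGFR1 in its brightest probe set, and it depends on the choice of probe set. The directions of FGFR1, FGFR2 and FGFR4 differ between their probe sets, so no shared shift of the members can be read from it. Counted by probe set, 4 of the 19 measured ones were at least 1.5-fold lower, against 2.83% of all measured probe sets, and 0 were at least 1.5-fold higher, against 0.33%. The 4 were both of FLRT3, 204359_at of FLRT2 and 235708_at of KLB. Without FLRT3, 2 of 17 were at least 1.5-fold lower, and 204359_at passed the floor through empty vector cells only. The other 15, which include all those of the FGF receptors and of ADGRL2, differed by less. Probe sets of a gene share their RNA and are not independent.

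**Figure D2:**
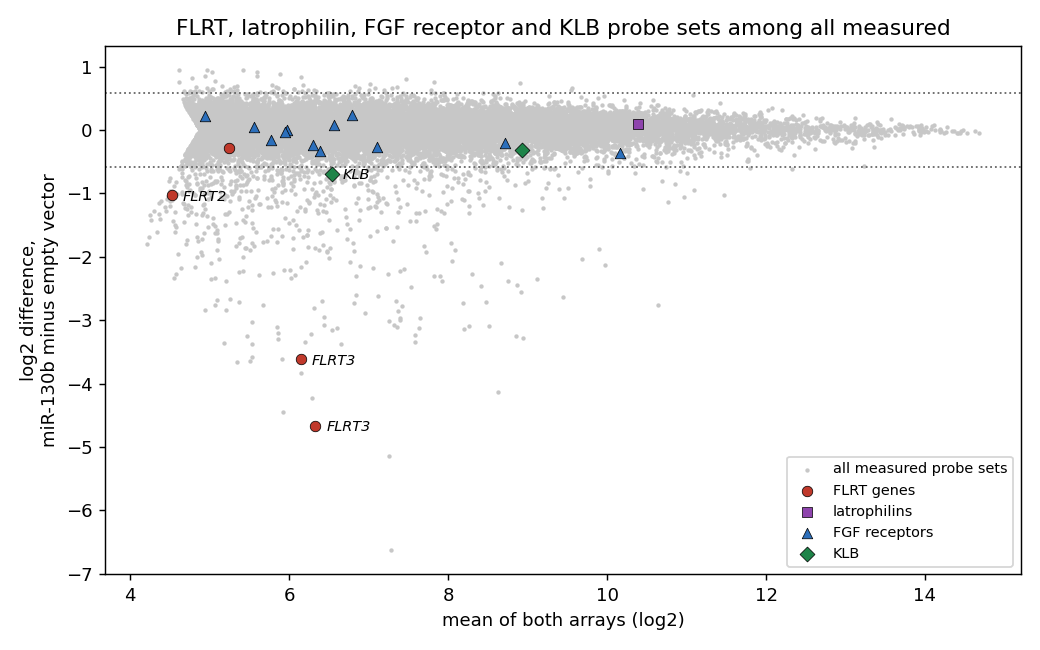
Log2 difference, miR-130b minus empty vector (vertical axis), against the mean log2 value of both arrays (horizontal axis) for all 23352 measured probe sets with 1 gene symbol in grey and the 19 of the FLRT, latrophilin, FGF receptor and KLB genes in colour; dotted lines mark 1.5-fold. The 2 FLRT3 points, at -4.67 and -3.62, lie far below the FGF receptor points, which all fall between the dotted lines.

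Fibroblast growth factors were mostly under the floor. From a list of 22 FGF genes, which includes the intracellular FGF11, FGF12, FGF13 and FGF14, 9 were measured, with a median difference of -0.04, and of these 1 was past 1.5-fold downwards and 0 upwards, against 2.68% and 0.294% of all measured genes. The 1 gene was FGF19, the hormone that signals through FGFR4 and beta-Klotho, with 5.45 in miR-130b cells and 6.04 in empty vector cells, a difference of -0.59 or 1.51-fold, just past the rule. It rests on 1 probe set. Of other FGF genes, FGF17, FGF18 and FGF4, differed by -0.23, 0.19 and -0.18. FGF21, a liver hormone that also needs beta-Klotho, was not measured, at 4.32 in miR-130b cells and 4.40 in empty vector cells.

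A further list held genes that carry or modulate the FGF signal and genes that the signal induces. Of these 20 genes, FGFBP1 and KL were not measured, and the adaptor FRS2 had no probe set of its own. The 17 others were measured, with 0 at least 1.5-fold lower, 0 higher and a median difference of -0.06 by the brightest probe sets. Against 2.68% lower and 0.294% higher among all measured genes, these counts are near the background. The feedback phosphatase DUSP6, which FGF and ERK signalling induces, had 10.22 in miR-130b cells and 10.19 in empty vector cells. The ETS factors ETV4 and ETV5, targets of the same pathway, differed by -0.17 and -0.09, and the feedback inhibitors SPRY2 and SPRY4 by -0.23 and -0.22. ETV5 disagreed between probe sets, with -0.13, -0.20 and 0.07 in the other measured probe sets. The inhibitors SPRY1 and SPRED2 went the other way, with 0.09 and 0.11. Over the 17 measured genes of the list, 9 were lower and 8 higher. IL17RD, a membrane inhibitor of FGF receptors, had 5.89 in miR-130b cells and 5.45 in empty vector cells, a difference of 0.43. The adaptor GAB1 had 5.51 in miR-130b cells and 5.94 in empty vector cells, a difference of -0.42, and -0.83 in its other measured probe set. SOS1, the exchange factor that activates RAS, differed by 0.36, and in its other measured probe sets by 0.21, 0.54 and 0.23. The inhibitor SPRED1 differed by 0.28. All 4 measured SOS1 probe sets were thus higher, and both measured GAB1 probe sets lower.

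Other leucine-rich repeat adhesion genes were mostly not measured. Of 27 such genes, 7 were measured, with a median difference of 0.03, and of these 0 passed 1.5-fold in either direction. With 2.68% of all measured genes lower and 0.294% higher by that rule, a count of 0 among 7 is near the background. LRRC15 had 4.90 in miR-130b cells and 4.47 in empty vector cells, close to the floor. LRIG1, a negative regulator of receptor tyrosine kinases, had 8.26 in miR-130b cells and 7.88 in empty vector cells, a difference of 0.38. AMIGO1 and LRRC4, both better known from neurons, differed by -0.23 and 0.23. The SLITRK genes and the LRRTM genes with a probe set of their own were below the floor in both arrays.

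**Figure D3:**
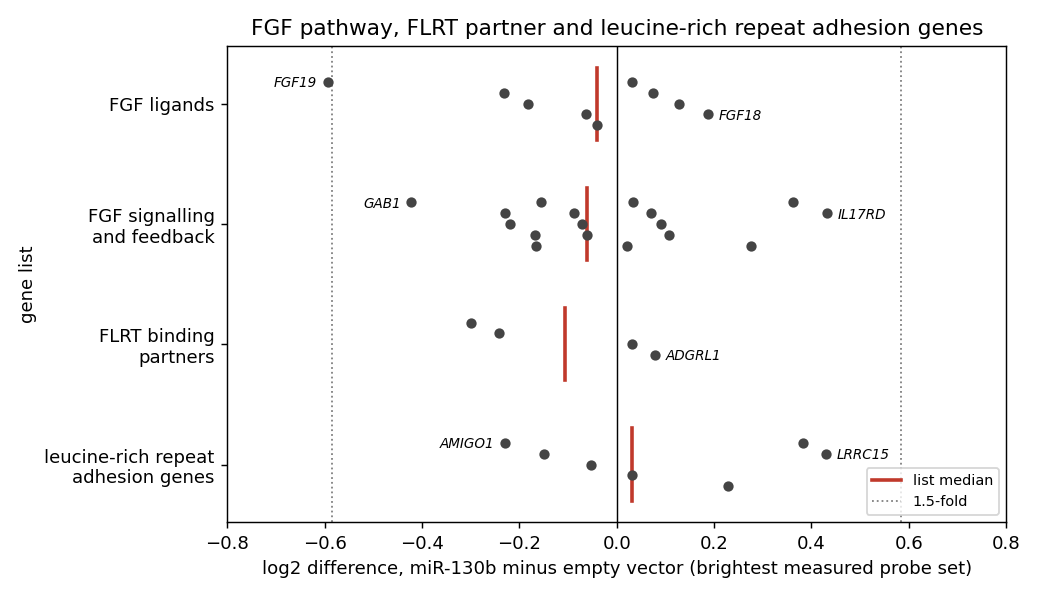
Log2 difference, miR-130b minus empty vector (horizontal axis), of the measured genes of 4 lists, 1 point per gene from its brightest measured probe set, with some of the outermost genes named, red bars at the list medians and dotted lines at 1.5-fold. FGF19, at -0.59, is the only point past a dotted line, and the medians lie between -0.11 and 0.03.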

How the data were processed

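Per the submitters' processing notes, the authors deposited log2 expression values made with RMA, which corrects background, gives arrays a shared distribution and summarises each probe set. The sources used here do not give its settings. The table holds 54675 probe sets, 62 of them controls, for 2 arrays, with column medians of 4.88 (miR-130b) and 4.89 (empty vector). It has no detection calls, and the number of arrays limits the precision.

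Groups came from the sample titles. Genes were named through GEO's platform annotation, in which 41091 non-control probe sets have 1 symbol, 1801 several and 11721 none. All 10 genes matched the RefSeq gene table by identifier. Sequences are RefSeq's (GRCh38.p14).

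Differences, the floor, the choice of brightest probe set and the counts were computed with Python 3.11.15, numpy 2.4.6 and pandas 2.3.3, tested on simulated data. No test was made. The genes, the 4 lists and the alternatives (a floor at the 75th percentile or none, mean of probe sets, no _x_at or _s_at probe sets, loess with statsmodels 0.14.6 and span 0.3) were chosen with earlier results of these data known. The motifs and neighbouring genes were chosen later. Named genes are all 10 members, up to 4 measured genes of each list by absolute difference, any list gene past 1.5-fold and the 3 genes nearest to FLRT3. One gene of the FLRT partner list is not reported here by name. DUSP6, ETV4, ETV5, SPRY1, SPRY2, SPRY4, SPRED2 and FGF21 and the genes beside FLRT2, FLRT3 and KLB were added after their values were seen.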

Additional observations from a re-analysis of the deposited data

How the results depend on the processing

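FLRT3, chosen for its decrease, was far beyond 1.5-fold lower under every alternative run, with log2 differences from -4.69 to -3.78. Changing the floor or dropping the suffixed probe sets kept the same probe set, 222853_at, so the value of -4.67 could not change there. It was -4.14 as the mean of its probe sets. With both arrays raised to the floor, an alternative chosen after seeing the data, 222853_at differed by -3.78 and 219250_s_at by -3.08. The number of members beyond 1.5-fold was 1, or 2 with the mean of probe sets and 2 without _x_at and _s_at probe sets, where FLRT2 joined FLRT3 with -0.66 and -1.03. FGFR1, FGFR2 and FGFR4 changed sign without those suffixed probe sets, to 0.01, 0.04 and 0.07, and FGFR2 also with the mean of probe sets, at 0.03. FGFR3, KLB and ADGRL2 kept their direction wherever they could be computed. No list median moved by more than 0.20, the SD between probe sets of a gene, used here only as a rule of size. The medians are small beside it, and each changed sign under some alternative, so their directions are not settled. With the floor at the 75th percentile, the FGF ligand list kept 1 measured gene and the leucine-rich repeat list 2. With the mean of probe sets GAB1 and UNC5B passed 1.5-fold, so 1 gene of each of their lists did. With the floor at the 75th percentile, fewer genes were counted: 192 were at least 1.5-fold lower and 16 higher, against 356 and 39 with the floor at the median. No paired analysis was possible because each condition has 1 array. Without a detection call, values under the floor cannot be read as absence, and differences there are compressed by background.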
